A study of Mus musculus with 7 samples.

Results

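The serum amyloid A genes *Saa1*, *Saa2*, *Saa3* and *Saa4* encode small secreted apolipoproteins and lie side by side on mouse chromosome 7. They were selected by name, as all probes that the array annotates to these 4 genes, and were read against the direction of albumin, *Alb*. That gave 6 probes of the 41174 on the array, and 4 genes of the 21475 named there. The genes were picked with the genotype contrast already known, so their differences between genotypes are given as a description without a test. In short, signals of the *Saa1* and *Saa2* probes were 2.36- to 2.82-fold lower in *Shh* -/- than in *Shh* +/+ tissue. The *Saa3* probe was also lower, but it was near background in the mutant and the size of its difference depended on the processing. *Alb* was 2.33-fold higher, and *Saa4* was too near background for its direction to be resolved.

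RNA came from the posterior second heart field (pSHF), the progenitor tissue behind the heart that contributes to the atrial septum, of mouse embryos at E9.5. The study asked which transcripts in this tissue depend on Sonic hedgehog (*Shh*). The dissected piece held the attached foregut but neither heart nor neural tube. Embryos came from superovulated *Shh* +/- females mated with *Shh* +/- males on a mixed background that the labels write as C56B/6 and CD-1, and were pooled by genotype. There were 4 pools of *Shh* -/- (mutant) embryos, numbered 1 to 4, and 3 pools of *Shh* +/+ (wild-type) embryos, numbered 1, 3 and 4, each on 1 single-colour Agilent array. Pools of the same number shared a slide. The mutant sample sat at position 1 and the wild type at position 2 of each slide, and the effect of position cannot be told apart from that of genotype. The slide of mutant pool 2 held no other array used here, and its label mentions a possible leak at hybridisation. How many embryos or litters made up a pool was not given in the sources used here, so the spread between pools is the only error shown.

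Serum amyloid A proteins are acute phase reactants. In the adult mouse, interleukin 6, interleukin 1 and tumour necrosis factor act through STAT3, NF-kappaB and C/EBP factors to raise *Saa1* and *Saa2* transcription in hepatocytes, and the proteins travel in blood on high density lipoprotein. *Saa3* is best known from macrophages, fat and epithelia, whereas *Saa4* encodes a form whose level changes little in inflammation. Albumin, the main plasma protein of hepatocytes, is a negative acute phase protein, which falls in inflammation.

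The *Saa1* and *Saa2* proteins and transcripts are close relatives, so the sequences that did the measuring are shown for *Saa1*, read by 2 separate probes, and for *Saa3*. Each is 60 bases long, is written 5′ to 3′ in transcript sense, and is placed on mm9, the build named in the array headers. Both *Saa1* probes and the *Saa3* probe lie on the minus strand.
*Saa1* probe A_51_P361650, chr7:53996167-53996639: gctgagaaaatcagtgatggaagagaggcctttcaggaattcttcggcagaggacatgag
*Saa1* probe A_52_P318673, chr7:53996070-53996129: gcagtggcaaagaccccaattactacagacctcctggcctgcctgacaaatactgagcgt
*Saa3* probe A_51_P337308, chr7:53968031-53968090: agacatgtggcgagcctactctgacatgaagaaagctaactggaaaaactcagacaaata
The first probe covers 473 bases of genome, so its 60 bases are not contiguous there. For the *Saa3* probe the array annotation lists a *Saa1* accession beside that of *Saa3*. *Saa2* had 1 probe, A_51_P166886 at chr7:54009535-54009594 on the plus strand, and *Saa4* had 2, A_51_P142529 and A_52_P404329. Transcript sequences were not used here. How far a *Saa1* probe also binds *Saa2* RNA, or the *Saa3* probe binds *Saa1* or *Saa2* RNA, was not tested. Signals of different probes are not on a common scale, so each probe is compared only with itself across pools.

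The 250 bases before the transcription start of each gene were taken from RefSeq (GRCm38.p6), in which all 4 genes were matched by accession. They are shown for all 4 genes, of which 3 differed in the same direction and *Saa4* was too dim to compare. Capitals mark matches, on either strand, to a C/EBP-type motif (TTNNGNAA), a kappaB-type motif (GG, any 3 bases, then TTTCC) or a TATA box (TATAAA).
*Saa1*, chr7:46742981-46743230, minus strand: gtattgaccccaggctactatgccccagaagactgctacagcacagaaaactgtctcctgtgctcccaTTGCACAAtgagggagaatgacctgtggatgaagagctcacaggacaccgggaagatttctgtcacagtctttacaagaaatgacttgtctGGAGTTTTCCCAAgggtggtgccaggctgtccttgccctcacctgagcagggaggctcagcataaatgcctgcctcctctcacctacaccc
*Saa2*, chr7:46751583-46751832, plus strand: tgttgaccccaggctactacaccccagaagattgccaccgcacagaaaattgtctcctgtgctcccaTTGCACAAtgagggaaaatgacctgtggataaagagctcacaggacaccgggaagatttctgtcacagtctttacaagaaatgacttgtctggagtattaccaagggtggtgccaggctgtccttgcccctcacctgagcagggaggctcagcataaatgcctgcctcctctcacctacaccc
*Saa3*, chr7:46715677-46715926, minus strand: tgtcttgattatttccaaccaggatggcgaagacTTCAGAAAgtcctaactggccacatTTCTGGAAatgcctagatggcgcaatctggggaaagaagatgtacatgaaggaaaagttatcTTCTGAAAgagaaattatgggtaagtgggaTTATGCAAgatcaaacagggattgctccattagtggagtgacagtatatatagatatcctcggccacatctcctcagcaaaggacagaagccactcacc
*Saa4*, chr7:46732604-46732853, minus strand: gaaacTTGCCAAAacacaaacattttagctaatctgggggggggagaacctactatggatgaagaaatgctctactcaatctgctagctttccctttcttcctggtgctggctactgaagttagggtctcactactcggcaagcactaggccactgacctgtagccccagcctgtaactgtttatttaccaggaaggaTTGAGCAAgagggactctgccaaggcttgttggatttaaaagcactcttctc

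The *Saa1* and *Saa2* promoters were 95.6% identical over 249 aligned bases. They share 1 C/EBP-type match, which starts at position -182 in *Saa1* and -183 in *Saa2*, counting back from the base before the start. *Saa1* held a second, at -86, that overlaps its kappaB-type match at -91, and *Saa2* held neither of these. *Saa3* held 4 C/EBP-type matches and *Saa4* held 2. The C/EBP-type letters occur in 36.8% of the 32851 promoters of this length, so the 4 *Saa* genes, *Saa4* included, shared a frequent motif. The kappaB-type letters occur in 4.63% of promoters. None of the 4 windows held TATAAA, the strict NF-kappaB consensus, the Hnf1-type letters GTTAAT, or the Gli consensus GACCACCCA, through which Hedgehog signalling acts and which 0.225% of promoters hold. With letters this rare and windows this short, nothing is read from the absence of the Gli consensus. The study found Gli3-bound regions mostly between genes and far from transcription starts, and such distant sites were not searched here.

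Signals are given on the log2 scale after background correction and variance-stabilising normalization, and a difference is the mutant mean minus the wild-type mean on that scale. The *Saa2* probe had normalized log2 signals of 11.26, 10.77 and 10.78 in wild-type pools 1, 3 and 4, against 9.53, 9.56, 9.37 and 9.72 in mutant pools 1 to 4. The lowest wild-type pool lay above the highest mutant pool. The means were 10.94 ± 0.28 (SD, n = 3) and 9.54 ± 0.14 (SD, n = 4), a difference of -1.39, which is 2.62-fold lower in the mutant.

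*Saa1* was read by 2 probes. For A_51_P361650 the wild-type pools had 9.27, 8.74 and 8.84, and the mutant pools 7.43, 7.40, 7.49 and 7.50. The mutant mean was 7.46 ± 0.05 (SD, n = 4), and the genotypes did not overlap. The wild-type mean was 8.95 ± 0.28 (SD, n = 3), so the mutant signal was 2.82-fold lower. For A_52_P318673 the wild-type pools had 10.48, 10.01 and 10.07, and the mutant pools 8.95, 8.82, 8.80 and 9.24. Here too every mutant pool was below every wild-type pool, and the difference was -1.24, or 2.36-fold lower. Both *Saa1* probes therefore ran in the same direction, with differences of -1.49 and -1.24.

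*Saa3* was dimmer. Its probe had 6.23, 5.73 and 5.90 in the wild-type pools and 4.58, 4.81, 4.80 and 4.49 in the mutant pools, a difference of -1.28, or 2.43-fold lower. The probe was well above background on all 3 wild-type arrays but on only 2 of 4 mutant arrays, those of pools 3 and 4. It entered the comparison across all probes through the wild-type pools alone, so a difference in this direction was favoured by the filter. With dim signals raised to the lowest signal measured above background, the difference was -1.25. It was -0.85 without background correction and -0.58 with quantile normalization, so its size was not settled.

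**Figure D1:**
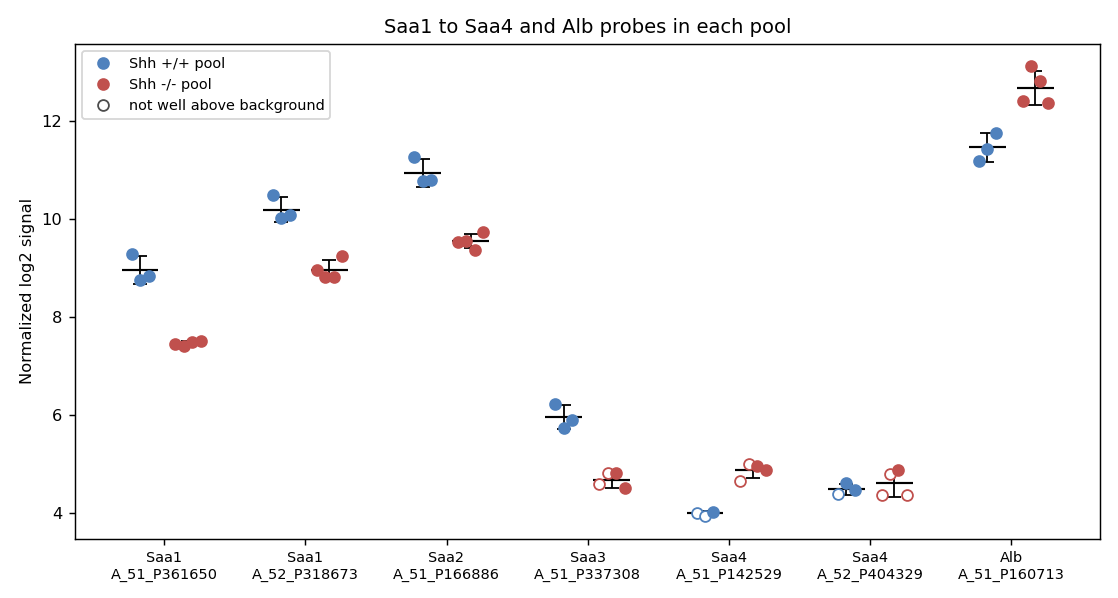
Normalized log2 signal of the 6 *Saa* probes and the *Alb* probe in each of 3 *Shh* +/+ pools (blue) and 4 *Shh* -/- pools (red), with mean and SD in black and open circles for pools in which a probe was not well above background. The *Saa1*, *Saa2* and *Saa3* points of the mutant pools lie below all wild-type points, the *Alb* points lie above them, and the *Saa4* points lie near the floor of the scale.

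*Saa4* was near background in both genotypes and was not in the comparison across all probes. Probe A_51_P142529 had 4.00, 3.93 and 4.02 in the wild-type pools and 4.63, 4.99, 4.95 and 4.88 in the mutant pools, a difference of 0.88. The mutant pools were all above the wild-type pools, the opposite of the other 3 genes, but the probe was well above background on only 2 of 4 mutant arrays and 1 of 3 wild-type arrays. Its difference fell to 0.64 when dim signals were raised to the lowest measured one, and ranged from 0.33 to 1.70 over the other ways of processing the arrays. The other probe, A_52_P404329, had 4.37, 4.59 and 4.46 against 4.36, 4.79, 4.87 and 4.36. These overlapped, with a difference of 0.12. So near background, the direction of *Saa4* was not resolved.

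*Alb* had 11.18, 11.43 and 11.76 in the wild-type pools and 12.42, 13.11, 12.81 and 12.37 in the mutant pools. All mutant pools were above all wild-type pools, and the difference was 1.22, or 2.33-fold higher. The gap between *Alb* and the mean of the 4 *Saa1*, *Saa2* and *Saa3* probes was taken in each pool, in log2 units. It was 1.87, 2.62 and 2.86 in wild-type pools 1, 3 and 4, and 4.79, 5.46, 5.19 and 4.63 in mutant pools 1 to 4. The size of this gap has no meaning across probes. That it was larger in every mutant pool follows from the *Saa* and *Alb* differences already given and adds nothing to them.

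The same order was present before any normalization. The mean raw signal of the *Saa2* probe was 1900 to 1967 in wild-type pools and 648 to 1009 in mutant pools, and that of *Saa3* was 82.7 to 88.8 against 44.9 to 64.9. The raw *Alb* signal was 1873 to 3831 in wild-type pools and 4223 to 10711 in mutant pools. The median signal over all spots of an array was 86.4 to 145, without a split by genotype, and 59.9 to 70.6% of probes were well above background.

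Pools sharing a slide gave the same directions. For the *Saa1*, *Saa2* and *Saa3* probes and *Alb* this had to follow, since the genotypes did not overlap, and it adds nothing on direction. The *Saa2* difference was -1.73, -1.40 and -1.06 on slides 1, 3 and 4. For *Saa1* probe A_51_P361650 it was -1.84, -1.25 and -1.34, and for *Saa3* -1.65, -0.93 and -1.41. Slide 1 gave the most negative value for all 4 of these probes, since wild-type pool 1 had the highest *Saa* signals. *Alb* differed by 1.23, 1.38 and 0.61 on the same slides.

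**Figure D2:**
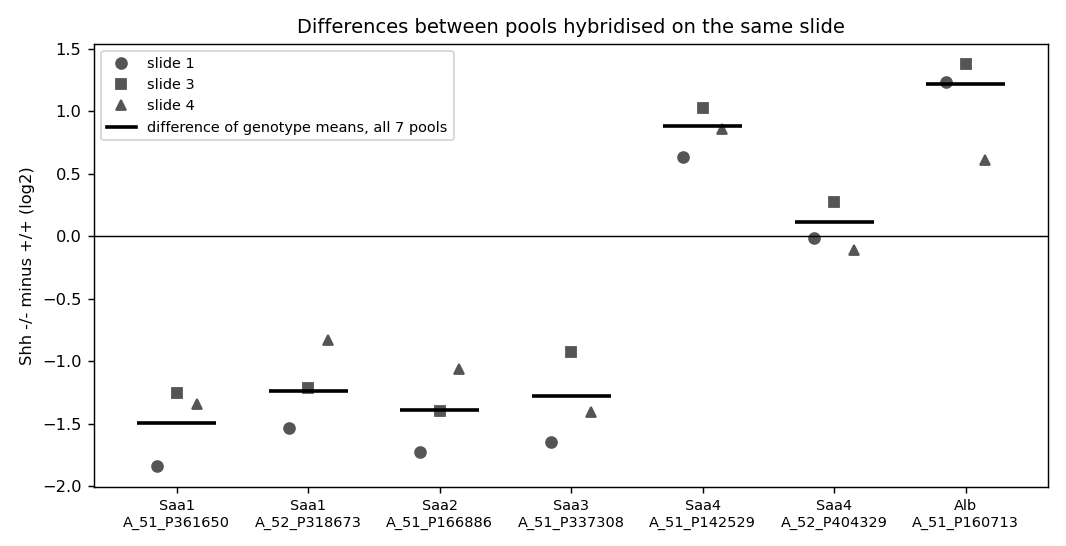
Difference in log2 signal between the *Shh* -/- and *Shh* +/+ pools on slides 1, 3 and 4 (symbols) and between the genotype means over all 7 pools (lines), for each *Saa* probe and *Alb*. All 3 slides lie below 0 for the *Saa1*, *Saa2* and *Saa3* probes and above 0 for *Alb*, while *Saa4* probe A_52_P404329 runs from -0.11 to 0.28.

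Across all features, 23127 probes of 14894 genes were bright enough to test. Of these, limma called 129 (0.558%) different between genotypes at a Benjamini-Hochberg adjusted p under 0.05, with 68 (0.294%) lower and 61 (0.264%) higher in the mutant. All 4 tested *Saa* probes, of 3 genes, were among the lower ones. By size of decrease they ranked 30th, 42nd, 53rd and 58th. Genotypes that did not overlap, with the mutant lower, were found for 3.56% of probes, the 4 *Saa* probes included, and with the mutant higher for 4.77%, *Alb* included. Because the genes were chosen on this contrast, nothing follows from these counts. With the slide as a fixed block, 11 probes and 0 *Saa* probes were called, although the mean *Saa* difference was -1.35 in both fits. In that fit 2101 probes had an unadjusted p under 0.05. With the slide as a random block, 182 probes and all 4 *Saa* probes were called. The share of calls that were lower was 52.7% in the fit without a block, 66.7% with 75th percentile scaling and 90.9% with the fixed block. It was 42.4% without mutant pool 1 and 100% without mutant pool 3, with the other omissions in between. As a background for the lists given later, 7.96% of probes had an unadjusted limma p under 0.05 and SAM, which compares the groups over all splits of the arrays, called 1.13%. The study's stricter limits, 0.005 and a change over 2-fold, were also put on limma's adjusted p, which called 5 probes (0.0216%) and 0 *Saa* probes. The study set them on SAM Q-values over a smaller, filtered set of probes, so this count is not comparable with its own.

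Markers of the tissue and of Hedgehog signalling were read as a check of the labels. Of 12 pSHF markers, 11 were bright enough to test, with 9 lower, 2 higher and a median of -0.26. Only *Foxf2*, at -2.43, was called by limma. The mean level of the 11, *Foxf2* included, was 10.93 to 11.19 in mutant and 11.49 to 11.59 in wild-type pools. *Hhip*, a Hedgehog target and inhibitor, was lower by -2.83 (SE 0.18, limma adjusted p = 0.00126). All 4 Hedgehog targets measured had a lower mean in the mutant, but limma called only *Hhip*. *Gli1* differed by -1.02 (limma adjusted p = 0.0672) and *Ptch1* by -1.17 (limma adjusted p = 0.143). A second *Ptch1* probe, at -1.19, overlapped between genotypes (limma adjusted p = 0.758). The *Shh* probe differed by -1.08 (limma adjusted p = 0.0654). Which exons the *Shh* null allele lacks was not given in the sources used here, so this probe does not check the genotype.

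*Alb* was not alone among liver genes. Of 17 liver bud markers, 16 were tested, all 16 had a higher mean in the mutant, and 4 passed the limma test. These were *Ttr*, a thyroxine carrier, at 0.91 (SE 0.14, adjusted p = 0.0319), and the fibrinogen chains *Fga* at 1.45 (SE 0.24, adjusted p = 0.0439), *Fgb* at 0.82 (SE 0.14, adjusted p = 0.0493) and *Fgg* at 0.92 (SE 0.15, adjusted p = 0.0434). The list's median was 0.79, against 0.02 over all tested probes. Its mean level was 10.55 to 11.01 in mutant and 9.86 to 10.15 in wild-type pools. By SAM, 5 of the 16 were called, and 15 had an unadjusted limma p under 0.05. The *Saa* and liver markers thus differed in opposite directions in the same RNA. In a dissected piece, more cells of a type and more RNA per cell cannot be told apart. These 4 calls were all lost with the slide as a fixed block, where the adjusted p of the 4 genes was 0.0638 to 0.121, but all 4 were made with it as a random block (0.0242 to 0.0359). They were also lost without mutant pool 2, mutant pool 3 or any 1 wild-type pool, with 75th percentile scaling and with no filter on dim probes. Quantile normalization called *Ttr* alone of the 4, and without mutant pool 4 *Fgb* alone was called. Without mutant pool 1 *Fgb* lost its call. All 16 means stayed higher in each of those fits, while with the authors' values 14 were higher, 2 were lower and 0 were called.

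Other positive acute phase proteins, which share the inflammatory control of the *Saa* genes in adult liver, were not called lower. Of 28 on the array 17 were tested, 0 were called lower and 4 were called higher. Over all tested probes limma called 0.294% lower and 0.264% higher. At that share 0 of 17 called lower is what most lists would give, so nothing is read from it. The called genes were *C3* and the 3 fibrinogen chains, which are also in the liver bud list. *C3*, the central complement component, differed by 1.24 (SE 0.18, limma adjusted p = 0.0319). The median of the 17 was 0.35, with 12 genes higher and 5 lower. Of the rest, *Itih3* had the largest difference, 1.13 (adjusted p = 0.135), followed by the haem carrier *Hpx* at 0.80 (adjusted p = 0.0536) and the haemoglobin carrier *Hp* at 0.79 (adjusted p = 0.469). The 7 acute phase genes with no array well above background included *Lcn2*, *Orm1* and *Orm2*. With the slide as a fixed block 0 of the 17 were called, and with it as a random block 5. By SAM, 5 of the 17 were called, and 8 had an unadjusted limma p under 0.05. With the fixed block *C3* had an adjusted p of 0.0832, with the random block 0.0238, and it lost its call without mutant pool 2, mutant pool 3 or any 1 wild-type pool.

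All 7 negative acute phase proteins, whose adult levels move against *Saa1* and *Saa2*, had a higher mean in the mutant, with a median of 0.91. Of these, 5 are also in the liver bud list and 1 is in the yolk sac list, so the lists are not separate evidence. *Ttr* was the 1 that limma called. SAM called 4 of the 7, and 7 had an unadjusted limma p under 0.05. *Ahsg*, encoding fetuin A, differed by 1.61 (limma adjusted p = 0.0572) and *Serpina6*, the corticosteroid carrier, by 1.21 (limma adjusted p = 0.0764).

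Several cytokines known to induce *Saa* genes, *Il6*, *Il1b*, *Tnf* and *Il22*, were not well above background on any of the 7 arrays. *Il1a* was well above it on 2 mutant arrays, at 5.45 in pool 1 and 5.95 in pool 4, and on 0 wild-type arrays. The interleukin 6 relatives *Il11* and *Cntf* were above it on all 7, with differences of -0.03 and -0.06. Of 16 inducers and receptors 10 were tested, limma and SAM both called 0, 3 had an unadjusted limma p under 0.05, and the median was 0.06. The largest were the interleukin 1 receptor *Il1r1* at 0.49, its partner *Il1rap* at 0.48, *Lifr* at 0.46 and *Il6ra* at -0.40. Their limma adjusted p values were 0.334, 0.178, 0.307 and 0.989. Of the 18 signal transducers and promoter-binding factors, all were tested, limma and SAM both called 0, and 2 had an unadjusted limma p under 0.05. Their median was 0.13. The transcription factors *Cebpa* and *Cebpd* differed by 0.65 and 0.47, with limma adjusted p values of 0.29 and 0.16, in the direction opposite to *Saa1* to *Saa3*.

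Serum amyloid A is carried on high density lipoprotein and binds several receptors. Of 16 genes for lipoprotein components and enzymes, 12 were tested, and limma called 2 higher and 1 lower. SAM called 4 of the 12, and 8 had an unadjusted limma p under 0.05. The apolipoprotein genes *Apoc1* and *Apoc2* rose by 0.88 and 1.33 (limma adjusted p = 0.0319 and 0.0476). *Pltp*, the phospholipid transfer protein that remodels these particles, fell by 1.31 (SE 0.14, limma adjusted p = 0.0123). With the slide as a fixed block all 3 lost the call (adjusted p = 0.107, 0.0891 and 0.0543), and with it as a random block all 3 were called (adjusted p = 0.0242, 0.035 and 0.00864). *Pltp* had 7.28, 7.28 and 7.65 in wild-type pools and 5.97, 5.94, 6.30 and 6.18 in mutant pools. Its pools did not overlap, which held for 3.56% of probes with the mutant lower. It also lost its call without wild-type pool 1 (adjusted p = 0.0561). Both *Apoc* calls were lost without mutant pool 2, 3 or 4 or any 1 wild-type pool. Of 7 receptor genes 5 were tested. Limma and SAM called 0 of them, 0 had an unadjusted p under 0.05, and their median was -0.09. The formyl peptide receptors *Fpr1* and *Fpr2* were not above background on any array.

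Cells other than liver that can express *Saa* genes were examined by their markers. Of 17 macrophage and neutrophil genes, 10 were tested, limma and SAM both called 0, 4 had an unadjusted limma p under 0.05, and the median was 0.51, the direction opposite to *Saa3*. The mean level of the list overlapped between genotypes, at 6.28 to 6.89 in mutant and 5.59 to 6.43 in wild-type pools. Of its genes, *Itgam*, *Elane*, *Ngp*, *Camp* and *S100a8* were not above background on any array. The largest differences among those tested were *Mpo* at 1.06, *Lyz2* at 1.00, *Lyz1* at 0.80 and *Mrc1* at 0.73, with limma adjusted p values of 0.538, 0.384, 0.181 and 0.194. The 7 tested yolk sac endoderm markers had a median of 0.70 and ran from 10.29 to 10.55 in mutant and 9.81 to 9.83 in wild-type pools. Limma called 0 of them, SAM 2, and 4 had an unadjusted limma p under 0.05. The 13 foregut markers, whose tissue was in the dissected piece, had a median of -0.06, with 0 called by limma, 1 by SAM and 3 at an unadjusted p under 0.05. For endothelium (7 genes, median 0.07), erythroid cells (7 genes, all lower, median -0.38) and decidua, uterus and placenta (2 genes, median 0.09), limma and SAM called 0, and 1, 2 and 0 genes had an unadjusted limma p under 0.05. The part of any of these cell types in the *Saa* differences was not tested.

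**Figure D3:**
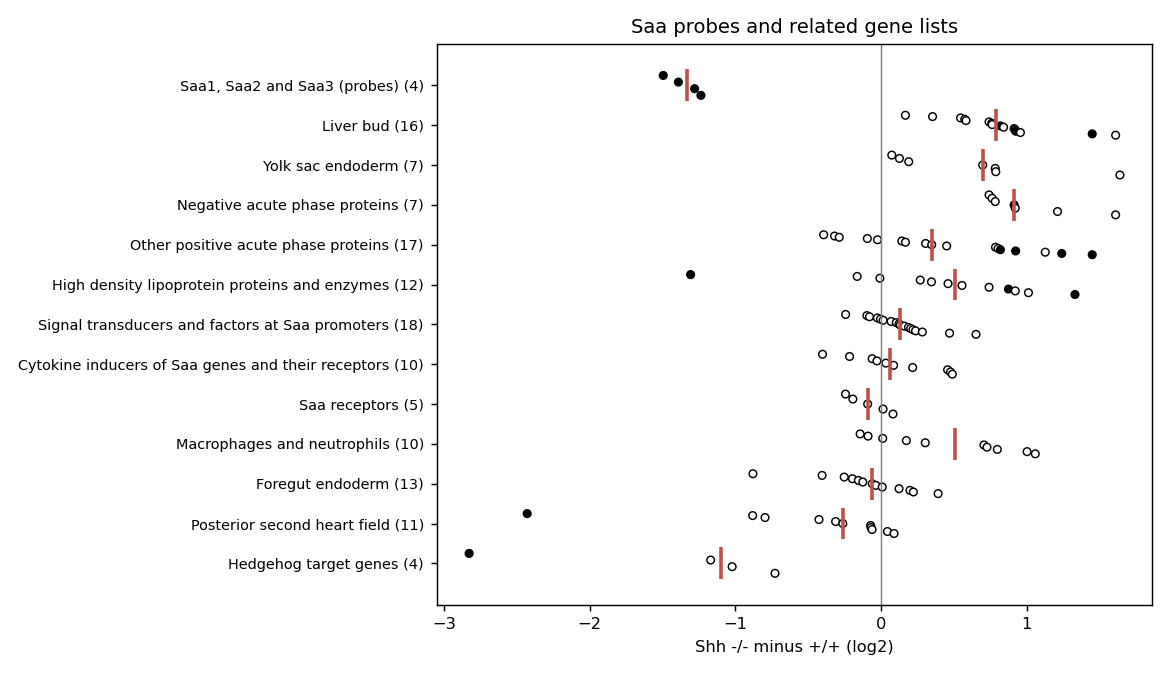
Difference between *Shh* -/- and *Shh* +/+ means (log2) for the 4 tested *Saa* probes and for each tested gene of 12 lists, with filled circles for a limma adjusted p under 0.05, red lines for medians and the number of points in brackets. The *Saa* points lie between -1.49 and -1.24, whereas the medians of the liver bud list and both acute phase lists are above 0.

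The 6 *Saa* probes span 41.6 kb. Inside this span lay 1 further probe, A_52_P525348, which carries no gene name and was not well above background on any array. Within 250 kb lay 18 other probes of 10 named genes, of which 16 probes, covering all 10 genes, were tested. Limma and SAM both called 0 of the 16, and 1 had an unadjusted limma p under 0.05. Their differences ran from -0.49 to 0.24 with a median of -0.06. The nearest named neighbours were *Hps5*, 6.61 kb beyond *Saa2*, at -0.05, and *Saal1*, a gene named for its likeness to *Saa1*, 19.7 kb before *Saa3*, at 0.00 and -0.10 on its 2 probes. None of the tested neighbours thus reached the size of the *Saa1* to *Saa3* differences. The *Saa4* probes, which lie between those of *Saa3* and *Saa1*, were too dim to compare.

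**Figure D4:**
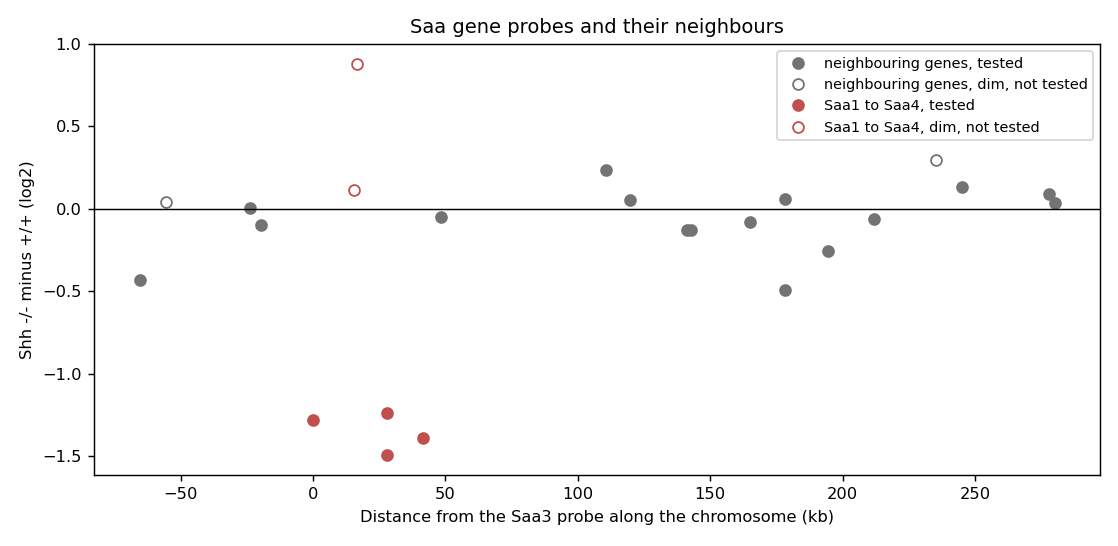
Difference between *Shh* -/- and *Shh* +/+ means (log2) of the *Saa* probes (red) and of probes of neighbouring genes (grey), by distance from the *Saa3* probe in kb, with open circles for probes too dim to test. The 4 tested *Saa* points lie below -1.2, and the tested neighbours lie between -0.49 and 0.24.

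Each of the 4 tested *Saa* probes had a smaller SD in the mutant than in the wild-type pools. The mean of the 4 tested probes was 7.62, 7.65, 7.62 and 7.74 in mutant pools 1 to 4, and 9.31, 8.81 and 8.90 in wild-type pools 1, 3 and 4. Deviations from the genotype means, which do not use the contrast, correlated over the 7 pools at 0.93 between *Saa2* and *Saa1* probe A_52_P318673, and at 0.82 between *Saa2* and *Saa1* probe A_51_P361650. *Saa3* correlated with *Saa2* at 0.39 and with the *Saa1* probes at 0.71 and 0.15. Much of this rested on wild-type pool 1. Without it, over 6 pools, the first value was 0.86, the second 0.07, and *Saa3* against *Saa2* was -0.66. In 2 of the 4 mutant pools *Saa3* was not well above background. These values are descriptions of few arrays that share normalization.

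By level over the 7 pools, the probes most like the mean of the 4 *Saa* probes, of 23021 compared, were those of *Foxf2* (r = 0.996), *Tmem158* (0.993), *Irx1* (0.990), *Pcp4* (0.990), *Rspo2* (0.989), *9130206I24Rik* (0.988), *Syt12* (0.986) and *4931429I11Rik* (0.985). These correlations mostly restate the genotype contrast, and 59 probes had r over 0.95. *Foxf2*, a forkhead transcription factor of the pSHF list, differed by -2.43 (limma adjusted p = 0.00216) and kept that call with the slide as a fixed block (adjusted p = 0.0076). By deviations from the genotype means, the closest were *Cmbl* (0.987), *E330013P04Rik* (0.984), *Eya4* (0.982), *Jam2* (0.980), *Sulf2* (0.978), *Fam13a* (0.977), *Pla2g2c* (0.973) and *Pcp4* (0.971). By deviations 29 probes had r over 0.95. The genes named are the highest of 23021 probes over 7 pools, so nothing is read from their likeness. *Pcp4*, a calmodulin-binding peptide gene, was the 1 gene in both groups of 8. Without wild-type pool 1 its value by deviations was 0.82, and those of the other 7 ran from 0.70 to 0.93. *Alb* correlated with the *Saa* mean at -0.93 by level and -0.48 by deviations, and at -0.17 by deviations without wild-type pool 1.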

How the data were processed

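Per the file headers and labels, the authors scanned each array with Agilent Feature Extraction 10.5.1.1, and the deposited scan files hold spot signals as intensity. The authors' normalized values are deposited on the log2 scale for 26255 probes, with array medians of 5.50 (mutant pool 2) to 9.93. Those of *Saa4* are not listed. The study's methods name background correction, VSN and log2, but the unequal medians are not explained in the sources used here.

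Mean signals were background-corrected by normexp on 153 negative controls (offset 50), outlier spots (155 to 206 per array) were left out, and VSN (own implementation, 0.9 of spots kept, 7 iterations, 5 strata) gave log2 values. Spots of a probe were averaged. Probes that were well above background on all arrays of 1 genotype or both were tested with limma 3.58.1 in R 4.3.3, and a list took the brightest tested probe per gene. The methods were tested on simulated data. Sequences and figures used Python 3.11.15.

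The genes and lists were chosen with earlier results of these data known. Called list members were named, otherwise the largest changes, and a few dim genes were named after their values were seen. In the labels, genotype stands under strain and strain under genotype. The 7 arrays limit the precision.

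The labels' slide barcode pairs the pools. Deviations from genotype means correlated at 0.0328 to 0.239 within slides (n = 3) and -0.220 to 0.187 between them (n = 9).

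Alternatives were no background correction, 75th percentile scaling, quantile normalization, the authors' values, outlier spots kept, slide as a fixed or a random block, no filter on dim probes, array weights, SAM over all 35 splits, the study's limits, and leaving out each array. The authors' values set to one median were added after seeing the data.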

Additional observations from a re-analysis of the deposited data

How the results depend on the processing

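The directions of *Saa1*, *Saa2*, *Saa3* and *Alb* held under every alternative that gave a value. Leaving out 1 pool could hardly reverse them, since the genotypes did not overlap. The mean difference of the tested *Saa* probes, -1.35, ranged from -1.95 with the authors' values to -1.12 with quantile normalization, was negative in all 15 alternatives, and was -1.35 with the replicate block. *Alb*, at 1.22, fell to 0.69 with the authors' values. *Saa3* ranged from -1.68 to -0.58.

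The calls depended on the processing. Against 129 probes and 4 *Saa* probes, the replicate block (slide as a fixed block) called 11 and 0, and slide as a random block 182 and 4. The study's limits, put on limma's adjusted p (under 0.005 and over 2-fold), called 5 and 0. The authors' values called 0 and 0 by limma (28 probes at unadjusted p under 0.05), as they did when set to one median (1038 unadjusted), and on them the median of the other positive acute phase proteins was -0.01. The 75th percentile scaling called 54 probes, no filter on dim probes 33, SAM 261 and array weights 551, with 3 or 4 *Saa* probes each. Leaving out 1 pool gave 12 (without mutant pool 3) to 139 (without mutant pool 1) probes, and 1 (without mutant pool 3) to 4 *Saa* probes. Without wild-type pool 1 the counts were 18 and 2, and without wild-type pool 4 they were 42 and 2. The causes were not tested. *Saa3* and *Saa4* are limited by signal near background.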
